A study of Mus musculus with 11 samples.

Results

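The cytosolic glutathione transferases (Gst), the UDP-glucuronosyltransferases (Ugt) and the cytosolic sulfotransferases (Sult) are the largest enzyme families of phase II conjugation. Their genes were taken from the count table by name, as alpha, kappa, mu, omega, pi and theta Gst genes, Ugt1a, Ugt2a, Ugt2b and Ugt3a genes, and all Sult genes. Of 70 rows with such names among 55414 genes, 54 had at least 10 counts summed over the 11 libraries and are the members described here: 21 Gst, 19 Ugt and 14 Sult genes. Of the other rows, 12 had 0 counts and 4 had between 1 and 9. Sult2a5 with 10 counts and Sult3a1 with 14 were just inside the limit, and Gstt4 with 8 and Sult2a3 with 6 were just outside it. After a filter on low counts 46 members were tested, and Gsto2, Ugt1a2, Ugt1a8, Sult2a1, Sult2a2, Sult2a5, Sult3a1 and Sult4a1 were not.

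RNA with poly(A) tails was sequenced from whole livers of 11 male mice, all of the Clec4f-DTR genotype. In these mice the Clec4f promoter, which is active in Kupffer cells, the resident macrophages of the liver, drives a receptor for diphtheria toxin (DT). The mice were 8 weeks old when feeding began and were fed for 16 weeks. The groups were 4 mice on western diet with alcohol that received serial DT injections (DT livers), 4 mice on the same diet that received serial saline injections (saline livers) and 3 mice on chow (chow livers). The labels of the chow mice name no injections, and neither doses nor injection days are given. Diet and injections thus both differ between DT and chow livers, and saline livers are the controls for the toxin. The labels say nothing of cages or days, so the p-values below measure the spread between these livers.

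Phase II enzymes join a polar group to a drug, hormone, bile pigment or lipid product so that it can leave the cell in bile or urine. Glutathione transferases attach glutathione to reactive electrophiles, including the aldehydes that form when lipids are oxidised. UDP-glucuronosyltransferases sit in the endoplasmic reticulum and attach glucuronic acid, and the Ugt1a genes are variants of 1 locus, each with its own first exon spliced to shared exons. Sulfotransferases move a sulfate group from the cofactor PAPS onto phenols, steroids and bile acids. Hepatocytes hold most of these enzymes, and cholangiocytes and other cells hold a few.

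The promoters below are those of members whose groups of livers are set apart in the sections that follow: the neighbours Gstp1 and Gstp2, 3 variants of the Ugt1a locus whose levels differed in direction, and Sult2a8, the member with the lowest fitted change after DT. All are RefSeq sequences of GRCm38.p6, given 5′ to 3′ on the gene's strand from 250 bases before the start to 50 after it. The authors aligned to another build, so these positions serve only to place the windows. Gstp1 lies at chr19:4037863-4038162 and Gstp2 at chr19:4042172-4042471, both on the minus strand. Their capitals mark TGAGTCA, the recognition letters of AP-1, which begin 74 and 89 bases before the start.
Gstp1: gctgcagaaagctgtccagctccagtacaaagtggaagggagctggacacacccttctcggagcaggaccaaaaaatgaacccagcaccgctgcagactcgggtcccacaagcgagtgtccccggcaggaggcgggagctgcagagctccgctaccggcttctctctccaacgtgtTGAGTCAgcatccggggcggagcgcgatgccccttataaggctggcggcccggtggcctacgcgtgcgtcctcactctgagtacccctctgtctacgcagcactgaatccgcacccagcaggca
Gstp2: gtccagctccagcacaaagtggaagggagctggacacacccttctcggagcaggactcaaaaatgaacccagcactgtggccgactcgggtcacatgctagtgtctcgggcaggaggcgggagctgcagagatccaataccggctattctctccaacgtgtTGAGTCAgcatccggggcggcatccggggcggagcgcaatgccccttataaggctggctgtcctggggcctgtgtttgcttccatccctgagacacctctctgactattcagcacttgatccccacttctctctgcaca

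The Ugt1a windows are on the plus strand, Ugt1a1 at chr1:88211709-88212008, Ugt1a9 at chr1:88070529-88070828 and Ugt1a5 at chr1:88165762-88166061. Capitals mark GTTAAT or its complement ATTAAC, letters bound by the hepatocyte factor HNF1. They occur 41 bases before the start of Ugt1a1 and 91 before that of Ugt1a9, and the window of Ugt1a5 holds none.
Ugt1a1: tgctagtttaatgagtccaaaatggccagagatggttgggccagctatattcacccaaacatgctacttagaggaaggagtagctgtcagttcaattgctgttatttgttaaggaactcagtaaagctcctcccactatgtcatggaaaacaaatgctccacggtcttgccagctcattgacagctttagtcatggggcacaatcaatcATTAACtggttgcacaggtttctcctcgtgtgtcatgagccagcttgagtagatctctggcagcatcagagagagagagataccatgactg
Ugt1a5: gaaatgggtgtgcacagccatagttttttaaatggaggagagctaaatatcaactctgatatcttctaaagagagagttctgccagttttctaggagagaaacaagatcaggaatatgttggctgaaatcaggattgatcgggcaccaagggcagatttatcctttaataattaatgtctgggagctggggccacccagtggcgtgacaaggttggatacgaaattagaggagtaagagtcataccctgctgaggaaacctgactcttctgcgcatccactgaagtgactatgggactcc
Ugt1a9: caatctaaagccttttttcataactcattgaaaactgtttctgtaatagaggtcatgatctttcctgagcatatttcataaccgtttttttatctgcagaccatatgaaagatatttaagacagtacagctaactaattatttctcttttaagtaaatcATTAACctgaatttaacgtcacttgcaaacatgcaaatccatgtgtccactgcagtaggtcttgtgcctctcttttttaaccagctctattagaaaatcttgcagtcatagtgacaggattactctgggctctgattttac

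Sult2a8 lies at chr7:14438502-14438801 on the minus strand. Its capitals mark AGGTCA, the core letters read by many nuclear receptors, which begin 164 and 90 bases before this start. A window at another annotated start, chr7:14446538-14446837, holds none.
Sult2a8: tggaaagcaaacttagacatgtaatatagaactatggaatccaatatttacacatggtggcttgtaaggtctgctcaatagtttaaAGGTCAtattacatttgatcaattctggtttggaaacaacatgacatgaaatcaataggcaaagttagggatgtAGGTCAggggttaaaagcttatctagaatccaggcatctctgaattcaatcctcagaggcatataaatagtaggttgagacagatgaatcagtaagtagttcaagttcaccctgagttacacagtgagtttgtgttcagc

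RefSeq windows matched 55 promoters of members. Gstp1 and Gstp2 were identical at 86.2% of 282 aligned bases, whereas the Ugt1a windows were identical at 58% to 63.9%. On either strand, AGGTCA was in 12 of the 55 member windows and in 16.26% of 32851 promoters of the same length, and GTTAAT in 10 and in 7.1%. The antioxidant response core TGACNNNGC was in 3 member windows (Gsta3, Gstm5 and Gstm7) and in 12.39% of all, and the xenobiotic response core GCGTG, which may overlap it, in 13 and in 32.39%. TGAGTCA, searched after the windows had been seen, was in 6 member windows and in 5.2% of all. A match is a run of letters and no evidence of binding.

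Library totals ran from 43995217 to 58089531 counts. Levels are CPM, read counts per library total scaled by TMM factors, and 3 counts, taken as the limit of detection, correspond to 0.0398 to 0.0773 CPM. Alb, the albumin gene of hepatocytes, had 47580 to 80320 CPM, as whole liver tissue has it. Clec4f had 9.06, 15.19, 7.512 and 6.177 CPM in DT livers 1 to 4, against 43.09 to 49.09 in saline livers and 37.12 to 50.31 in chow livers. On the first principal component, which held 75.9% of the variance, DT livers 1, 3 and 4 lay between 62.53 and 71.78 and DT liver 2 at -14.24, beside saline livers at -31.01 to -10.33 and chow livers at -34.56 to -28.53. Counts of calls in DT over saline livers are therefore also given without DT liver 2, a choice made after the data had been seen.

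Markers of other cell types also differed between the groups, though DT liver 2 lay among saline livers in cholangiocyte and stellate sums. In DT over saline livers, 9 of 10 cholangiocyte markers were higher (sums of 135, 32.23, 87.68 and 144.2 CPM in DT livers 1 to 4, against 25.36 to 33.73 in saline livers and 32.65 to 47.23 in chow livers). Cftr and Cldn4 are among these markers. They had a value in only 19 of 22 alternative fits of DT over chow livers. The filter on low counts removed them from the rest, so the calls of these 2 genes carry no weight. Of 8 stellate cell markers, 7 were higher. Their sums were 628.6, 243.5, 604.9 and 715 CPM in DT livers 1 to 4, 149 to 295.4 in saline livers and 109.8 to 145.5 in chow livers. Kupffer cell markers were lower, 7 of 7 (113.4 to 190 CPM, against 275.8 to 380.1 and 258.3 to 341.7). Of 9 hepatocyte markers, 1 (Apob) was lower (73980 to 101400 CPM, against 100200 to 114500 in saline livers and 115500 to 135900 in chow livers). Among 5 macrophage markers 1 was higher and 1 lower, 2 of 5 endothelial markers were lower, and 3 of 5 genes of dividing cells were higher. Without DT liver 2, hepatocyte markers had 4 of 9 lower and 0 higher, macrophage markers 2 higher and 1 lower, endothelial markers 3 lower and dividing cell genes 4 higher, while cholangiocyte, stellate and Kupffer cell counts were 9, 7 and 7 again. Over all genes, 14.3% were called higher and 7.62% lower with all livers, and 22.6% and 17.7% without DT liver 2. The part these cell type markers have in the results below was not tested. In whole liver, fewer cells of a type and less RNA per cell cannot be told apart.

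In DT over saline livers, the Ugt genes called with all livers were all lower. Among the 46 tested members 15 were called (5 higher, 10 lower, 32.6%), at an adjusted p below 0.05 in edgeR's quasi-likelihood test, beside 21.9% of all 17038 genes tested (14.3% higher and 7.62% lower). By family, 0 Ugt genes were higher and 9 of 17 lower (52.9%), 4 of 20 Gst genes were higher and 0 lower (20%), and 1 of 9 Sult genes was higher and 1 lower. The Gst share was close to that of all genes, most of whose calls were higher too. The median log2 fold change was -0.77 over the tested Ugt genes, 0.34 over Gst and -0.53 over Sult, against 0.02 over all genes. Scaled by total counts alone, which shifts the median of all genes by 0.34 on the log2 scale, 14 members were higher and 7 lower, among them 10 Gst genes higher and 0 lower, and 1 Ugt gene higher and 6 lower, while over all genes 5183 were higher and 446 lower. Without DT liver 2, 30 members were called (8 higher, 22 lower), of which Ugt genes made up 1 higher and 14 lower, Gst genes 6 higher and 3 lower, and Sult genes 1 higher and 5 lower. In that fit 40.3% of all 16938 genes tested were called (22.6% higher and 17.7% lower). Removing another library took the count to 6 (saline liver 2) or 7 (DT liver 3 or DT liver 4), where 1786, 1879 and 1809 of all genes were called, against 3734 with all livers.

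In saline over chow livers, which differ by diet and injections, 4 of 20 Gst genes were lower and 1 Ugt and 1 Sult gene were higher. These 6 calls are 13% of the tested members, beside 5.58% of all genes (2.45% higher and 3.13% lower). The count was 11 without DT liver 2, whose group shares the estimate of spread (11.4% of all genes), 3 without saline liver 3 or chow liver 2, and 2 without chow liver 1 or chow liver 3, where 287 to 508 of all genes were called, against 950 with all livers. In DT over chow livers, 16 members were called (5 higher, 11 lower, 34.8%), beside 23.0% of all genes (14.8% higher and 8.16% lower). These were 3 Gst genes higher and 3 lower, 7 Ugt genes lower, and 2 Sult genes higher and 1 lower. The count was 26 without DT liver 2 (40.3% of all genes) and 10 without chow liver 1 or chow liver 2, where 1786 and 1870 of all genes were called, against 3919. Total counts alone gave 13 members higher and 9 lower, and over all genes 6197 higher and 339 lower. Each pair of comparisons shares a group of livers, so their values are set side by side only.

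**Figure D1:**
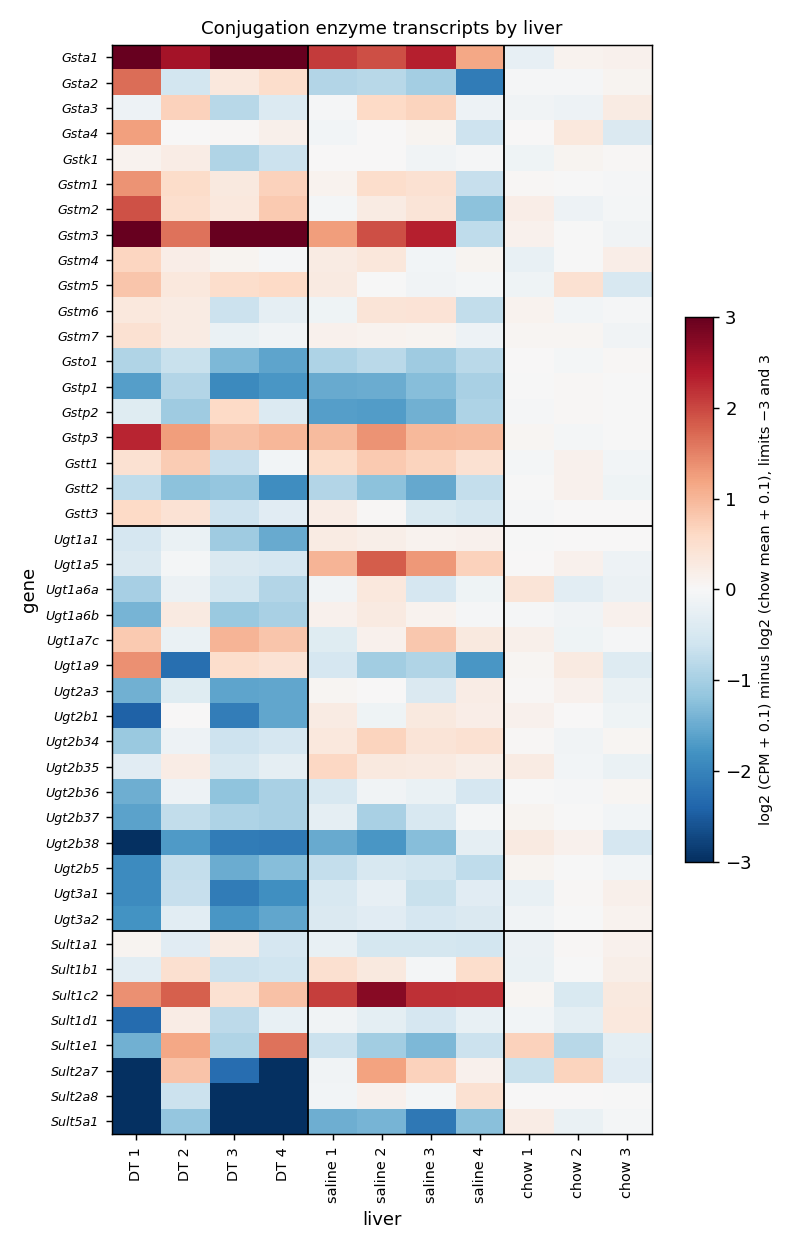
Level of 43 members with a group mean of at least 1 CPM in each of the 11 livers (columns, DT livers left, then saline, then chow), as log2(CPM + 0.1) minus the log2 of the chow mean + 0.1, with colours limited at 3 either way. Most Ugt rows lie further below the chow mean in DT livers 1, 3 and 4 than in DT liver 2, and Gsta1, Gstm3 and Sult2a8 are among the rows that reach the colour limits.

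Summed over the family, Ugt transcripts were at 1335, 2762, 1386 and 1532 CPM in DT livers 1 to 4, against 3010 to 3229 in saline livers and 3270 to 3431 in chow livers. All 4 DT livers were below all saline livers, DT liver 2 by the least. Gst sums overlapped, at 5470, 4068, 2662 and 3453 CPM in DT livers, 2473 to 3741 in saline livers and 3607 to 3711 in chow livers. Sult sums were 455.3, 864.6, 570.8 and 435.5 CPM in DT livers, against 905.1 to 1150 in saline livers and 1046 to 1165 in chow livers, again without overlap. These sums are descriptions, with no test.

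The make-up of each family also differed. Gstp1 held 30.6% to 32.5% of the Gst sum in chow livers and was the leading Gst gene there, whereas Gstm1 led in DT livers with 36% to 46.9% and in saline livers with 25% to 38.5%. Sult2a8 held 38.2% of the Sult sum in DT liver 2, 48.6% to 61.5% in saline livers and 44.3% to 49.6% in chow livers. In DT livers 1, 3 and 4 the leading Sult gene was Sult1a1, a phenol sulfotransferase, with 86.8%, 77.7% and 60.5%.

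**Figure D2:**
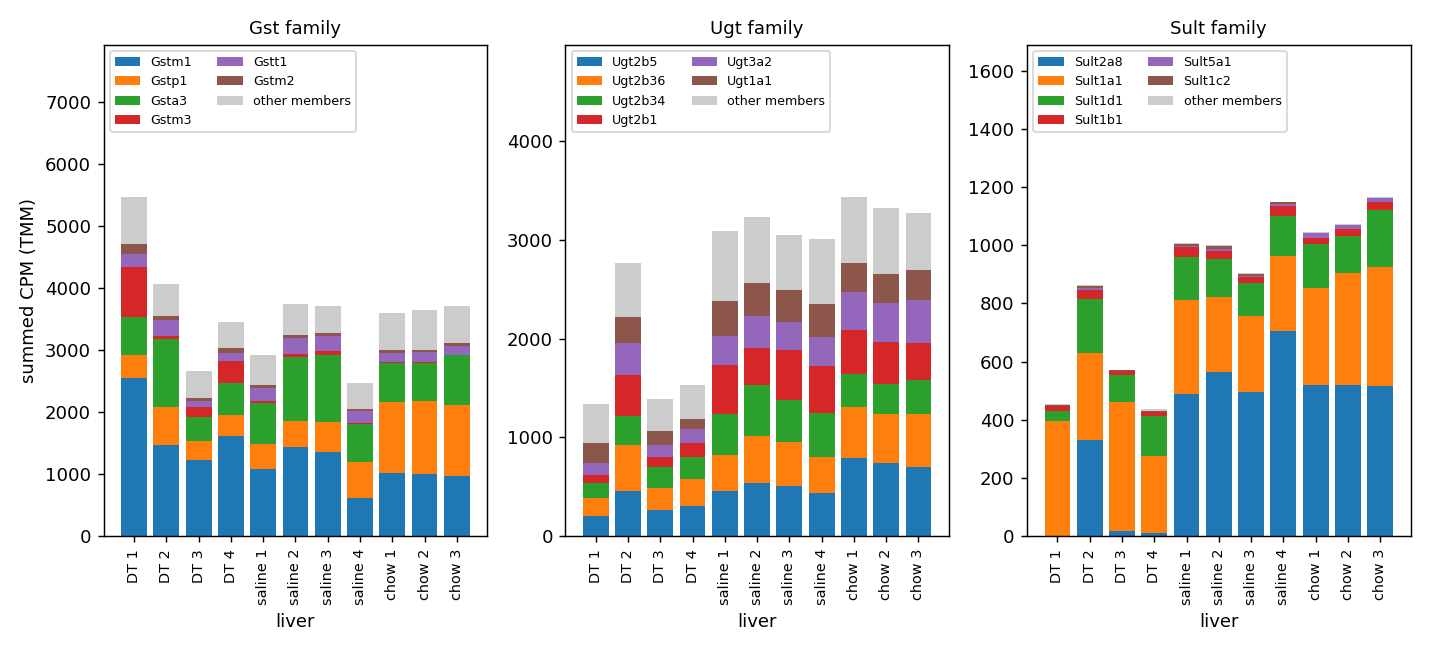
Summed CPM of the Gst, Ugt and Sult families in each liver (DT livers left, then saline, then chow), stacked with the 6 members of highest level coloured and all others grey. Ugt bars are lower in DT livers 1, 3 and 4 (1335 to 1532 CPM) than in saline livers (3010 to 3229 CPM), and the Sult2a8 segment is nearly absent in these 3.

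Per kilobase of exon, Gstm1 was the most abundant of these genes in DT livers, at 1165 CPM per kb, against 763 in saline livers and 678.6 in chow livers. Gstp1 had 264.5 in DT livers, 303.0 in saline livers and 745.6 CPM per kb in chow livers. Ugt2b5 had 165, 258.6 and 398.7 CPM per kb in DT, saline and chow livers, and Sult2a8 had 27.29, 171.8 and 157.8. The Sult2a8 mean of DT livers rests on DT liver 2, at 100.5 CPM per kb, and was 2.902 without it. On this scale Gstm3 had 259.0 in DT livers, 30.18 in saline livers and 10.15 CPM per kb in chow livers. Its mean of DT livers was 140.7 without DT liver 1.

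Gsta1, an alpha transferase that reduces organic peroxides and conjugates their products, had the largest fitted rise of the Gst genes called after DT. It had 30.84, 1.623, 8.331 and 8.642 CPM in DT livers 1 to 4, against 1.202, 1.058, 1.427 and 0.5749 in saline livers and 0.1545, 0.2251 and 0.2307 in chow livers. Every DT liver was above every saline liver, DT liver 2 barely so. Fitted in edgeR, its log2 fold change in DT over saline livers was 3.53 ± 0.69 (SE, n = 4 and 4, edgeR adjusted p = 0.00834), and in DT over chow livers 5.90 ± 0.93 (edgeR adjusted p = 0.00359). In limma-voom the adjusted p was 0.0592 for the first and 0.0851 for the other. Of all 50-base windows of its longest annotated transcript, 89.7% occur in another gene, 82.9% in Gm3776, which had 22.7, 1.165, 5.662 and 6.959 CPM in DT livers and 0.2555 to 1.317 in saline livers, so how reads divide between these copies is uncertain.

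Gsta2, a close relative with 64.2% of windows shared with other genes, had 105.3, 22.22, 40.68 and 47.03 CPM in DT livers, against 17.89, 18.47, 16.11 and 7.559 in saline livers and 31.80, 32.13 and 34.45 in chow livers. DT livers were all above saline livers, and chow livers lay above saline livers and DT liver 2. Its log2 fold change in DT over saline livers was 1.84 ± 0.41 (edgeR adjusted p = 0.0121). Gsta3, the alpha enzyme of highest level, had 616.9, 1099, 381.9 and 509.1 CPM in DT livers, 610.3 to 1077 in saline livers and 611.0 to 802.2 in chow livers. In DT over saline livers it was called only without DT liver 2 (-0.75, edgeR adjusted p = 0.0246). Gsta4, which prefers 4-hydroxynonenal, an aldehyde of lipid peroxidation, had 110.9 CPM in DT liver 1 and 46.88 to 52.45 in the other three, against 30.24 to 49.93 in saline livers and 34.82 to 58.56 in chow livers, with no call in edgeR under TMM factors.

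Gstm3, a mu class transferase, had 804.6, 41.41, 161.7 and 350.4 CPM in DT livers 1 to 4, against 31.85, 50.93, 67.73 and 7.772 in saline livers and 14.45, 13.12 and 12.34 in chow livers. DT livers 1, 3 and 4 were above every saline liver and DT liver 2 was among them. The fitted log2 fold change was 3.10 ± 0.80 in DT over saline livers (edgeR adjusted p = 0.0199) and 4.67 ± 0.98 in DT over chow livers (edgeR adjusted p = 0.00833). The call over saline was lost without saline liver 1 (adjusted p = 0.0564), saline liver 2 (0.0531), DT liver 1 (0.0653) or DT liver 4 (0.0547) in edgeR, and also with no filter on low counts and with a replicate block, which treats livers of the same number as a set. Of its windows, 28.8% are shared, mainly with Gm8834.

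The other mu genes were not called in edgeR with all livers and TMM factors. Gstm1, the most abundant, had 2553, 1464, 1231 and 1618 CPM in DT livers, 1076, 1438, 1362 and 618.9 in saline livers and 977.0 to 1023 in chow livers. Gstm2 had 160.8 CPM in DT liver 1 and 52.86 to 73.37 in the other DT livers, against 18.25 to 55.57 in saline livers and 38.31 to 48.93 in chow livers. DT liver 1 was the highest liver for each of these 2 genes. Gstm5 had 6.7 to 9.553 CPM in DT livers and 4.939 to 6.52 in saline livers, without overlap. It was called in DT over saline livers without DT liver 2 (0.64, edgeR adjusted p = 0.0288), without chow liver 2 (0.55, edgeR adjusted p = 0.0459) and in DESeq2 (0.57, adjusted p = 0.0351). DESeq2 also called Gstm2 in DT over saline (1.08, adjusted p = 0.0215), and Gstm1 (0.81, adjusted p = 0.0305), Gstm2 (1.06, adjusted p = 0.0396) and Gstm5 (0.62, adjusted p = 0.0346) in DT over chow. Gstm4, Gstm6 and Gstm7 reached at most 70.14, 62.41 and 42.64 CPM in any liver, and DT and saline livers overlapped.

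Gstp1, the pi class transferase that guards cells against electrophiles, was lower in both saline and DT livers than in chow livers. It had 366.2, 623.6, 305.3 and 342.4 CPM in DT livers, 402.1, 412.3, 477.5 and 584.1 in saline livers and 1141, 1185 and 1136 in chow livers. Every liver on the diet was below every chow liver. On the log2 scale the change was -1.30 ± 0.23 in saline over chow livers (n = 4 and 3, edgeR adjusted p = 0.0095) and -1.5 ± 0.23 in DT over chow livers (edgeR adjusted p = 0.00356), and neither call was lost in any refit with 1 library left out. In DT over saline livers it was not called with all livers, and was without DT liver 2 (-0.47, edgeR adjusted p = 0.0196).

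Gstp2, its neighbour, had another order. It had 21.11, 12.92, 41.16 and 20.40 CPM in DT livers, against 8.517, 8.481, 9.914 and 14.20 in saline livers and 26.52, 27.92 and 27.04 in chow livers. Saline livers were all below chow livers, and DT livers overlapped both groups. The log2 fold change was 1.22 ± 0.30 in DT over saline livers (edgeR adjusted p = 0.0166) and -1.40 ± 0.32 in saline over chow livers (edgeR adjusted p = 0.0253). The first call was lost without saline liver 2 (edgeR adjusted p = 0.055). The other was lost without chow liver 1 (0.0864), 2 (0.0884) or 3 (0.0709) or saline liver 1 (0.073), 2 (0.0825) or 3 (0.0719), and under total counts alone or no filter on low counts. Of the windows of Gstp1, 62.3% occur in Gstp2, and of those of Gstp2, 64.3% occur in Gstp1 and 72.6% in any other gene, so a part of the Gstp2 counts may be Gstp1 reads.

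Gstp3, with 0% of windows shared, went the other way. It had 25.22, 12.38, 9.517 and 10.25 CPM in DT livers, 9.964, 13.06, 10.10 and 9.859 in saline livers and 5.331, 4.912 and 5.030 in chow livers. All livers on the diet were above all chow livers. Fitted in edgeR, its log2 fold change in DT over chow livers was 1.49 ± 0.31 (edgeR adjusted p = 0.00786). In saline over chow livers the edgeR adjusted p was 0.062, above the threshold. There it was called in DESeq2 (1.1, adjusted p = 0.01) and with these 2 groups alone (1.09, edgeR adjusted p = 0.000882). It was also called there without DT liver 1 (1.08, edgeR adjusted p = 0.00239) and with the GC correction (1.16, edgeR adjusted p = 0.0376).

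Gsto1, an omega class enzyme that reduces dehydroascorbate and arsenic compounds, had 66.93, 78.68, 49.19 and 41.78 CPM in DT livers, 65.90, 71.14, 59.63 and 71.46 in saline livers and 126.1, 120.0 and 127.1 in chow livers. Chow livers were above all others. Its log2 fold change was -0.89 ± 0.18 in saline over chow livers (edgeR adjusted p = 0.0178) and -1.07 ± 0.18 in DT over chow livers (edgeR adjusted p = 0.00462). The call in saline over chow livers was lost without chow liver 1 (adjusted p = 0.0775), 2 (0.0629) or 3 (0.0607) or saline liver 3 (0.0717), and with a replicate block.

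Gstt2, a theta class enzyme, had 78.27, 56.41, 60.06 and 36.65 CPM in DT livers, 71.97, 56.50, 45.75 and 81.19 in saline livers and 131.7, 145.5 and 122.9 in chow livers, again with chow livers highest. The fitted log2 fold change was -1.06 ± 0.24 in saline over chow livers (edgeR adjusted p = 0.0248) and -1.21 ± 0.24 in DT over chow livers (edgeR adjusted p = 0.00704). The call in saline over chow livers was lost without chow liver 1 (adjusted p = 0.0887), 2 (0.1) or 3 (0.0594) or saline liver 2 (0.0807) or 3 (0.081), and with a replicate block. Gstt1, whose human form conjugates small halogenated compounds, had 206.4, 256.1, 93.40 and 141.8 CPM in DT livers, 205.2 to 259.3 in saline livers and 141.7 to 162.8 in chow livers, and was not called in edgeR with all livers. Without DT liver 2 it was lower in DT over saline livers (-0.64, edgeR adjusted p = 0.0332). Gstk1, the kappa enzyme of mitochondria and peroxisomes, had 45.71 to 98.48 CPM in DT livers, 79.55 to 85.30 in saline livers and 77.51 to 90.36 in chow livers, and was not called.

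**Figure D3:**
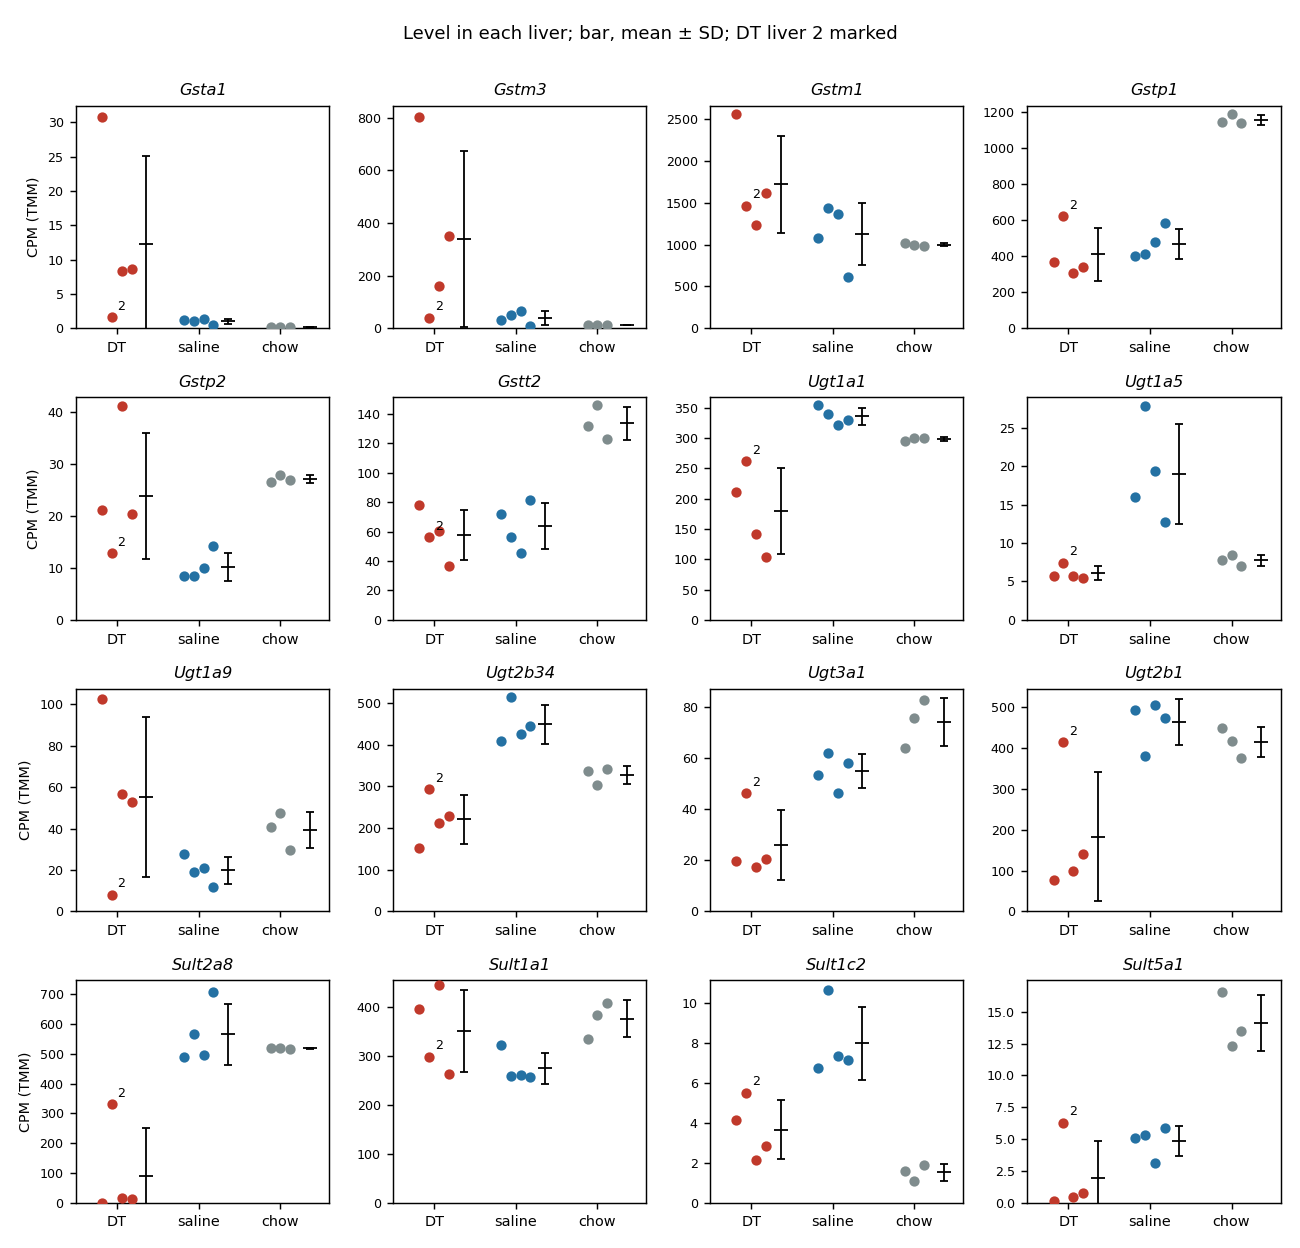
CPM of 16 members in each liver (points, DT livers left, then saline, then chow), with bars at the mean and SD of each group. Axes start at 0, so bars that would reach below 0 end there, and DT liver 2 is marked. All livers on the diet lie below chow livers for Gstp1 and Gstt2, and DT liver 2 stands near the saline livers for Ugt2b1, Ugt3a1 and Sult5a1.

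Of the Ugt1a variants, Ugt1a1, the enzyme that glucuronidates bilirubin, fell after DT. It had 211.1, 262.1, 141.4 and 104.3 CPM in DT livers, against 354.3, 338.9, 321.3 and 328.9 in saline livers and 294.9, 299.9 and 300.5 in chow livers. All DT livers were below all others. On the log2 scale the change in DT over saline livers was -0.90 ± 0.23 (edgeR adjusted p = 0.0195), and the call was lost without DT liver 3 (adjusted p = 0.0631) or saline liver 2 (0.0518).

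Ugt1a5 had its highest levels in saline livers. It had 5.717, 7.449, 5.676 and 5.474 CPM in DT livers, against 15.95, 27.80, 19.32 and 12.69 in saline livers and 7.777, 8.494 and 7.014 in chow livers. Saline livers were above both other groups with no overlap. The log2 fold change was -1.64 ± 0.22 in DT over saline livers (edgeR adjusted p = 0.00331) and 1.29 ± 0.24 in saline over chow livers (edgeR adjusted p = 0.0107). The rise in saline livers was lost without chow liver 1 (adjusted p = 0.057) or chow liver 3 (0.0501).

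Ugt1a9, whose human form conjugates phenols and drugs, had the highest levels in DT livers 1, 3 and 4. It had 102.8, 8.157, 56.52 and 52.85 CPM in DT livers, against 27.63, 18.95, 20.93 and 11.75 in saline livers and 40.87, 47.44 and 29.90 in chow livers. DT liver 2 was the lowest liver of all. With all livers it was not called in edgeR (log2 fold change 1.48 ± 0.54 in DT over saline livers, edgeR adjusted p = 0.0686), and without DT liver 2 it was called at 1.84 (edgeR adjusted p = 0.00169). With all livers it was also called in DESeq2 (1.49, adjusted p = 0.0169) and under total counts alone (1.87, adjusted p = 0.0319). Ugt1a6b had 18.55, 58.53, 22.37 and 24.77 CPM in DT livers, 47.34 to 58.90 in saline livers and 44.97 to 53.34 in chow livers. With all livers it was not called in edgeR, but was in DESeq2 (-0.76, adjusted p = 0.0456) and limma-voom (-0.93, adjusted p = 0.0417) for DT over saline. Without DT liver 2 its log2 fold change was -1.27 (edgeR adjusted p = 2.62e-05).

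The Ugt1a variants differ in their first exons alone, and 38.9% to 80.7% of the windows of their transcripts are shared within the locus. A read from the shared exons cannot be given to 1 variant, so values of single variants rest on how the authors counted reads that belong to several genes, which is not given in the sources used here. Ugt1a6a, Ugt1a7c and Ugt1a10 reached at most 9.734, 1.44 and 0.6269 CPM in any liver and were not called in edgeR with all livers and TMM factors. Without DT liver 2, Ugt1a6a was called in DT over saline (-0.74, edgeR adjusted p = 0.0244) and in DT over chow (-0.82, edgeR adjusted p = 0.02). Ugt1a7c was called in DT over chow without DT liver 2 (0.98, edgeR adjusted p = 0.0383) and under total counts alone (1.26, edgeR adjusted p = 0.045).

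The Ugt2 genes conjugate steroids, bile acids and drugs. Ugt2b34 fell in DT livers, with 151.3, 293.9, 211.5 and 228.2 CPM in DT livers, against 407.3, 515.1, 425.2 and 445.3 in saline livers and 336.5, 301.8 and 340.3 in chow livers. DT livers were all below saline livers. Fitted in edgeR, its log2 fold change in DT over saline livers was -1.02 ± 0.18 (edgeR adjusted p = 0.00673) and it was called in every refit with 1 library left out. Ugt2a3 had 101.5, 211.6, 91.99 and 93.00 CPM in DT livers, 285.0, 274.6, 202.7 and 320.1 in saline livers and 281.1, 302.0 and 239.0 in chow livers. DT liver 2 was above the lowest saline liver, and the other DT livers were below all of them. The fitted log2 fold change was -1.12 ± 0.26 in DT over saline livers (edgeR adjusted p = 0.0146) and -1.14 ± 0.28 in DT over chow livers (edgeR adjusted p = 0.0154). The call over chow was lost without chow liver 1 (adjusted p = 0.0533) or 2 (0.0582), and in the fit of these 2 groups alone.

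Ugt2b1 showed the gap between DT liver 2 and the rest most clearly in this subfamily. It had 77.20, 415.8, 98.46 and 141.8 CPM in DT livers, against 494.2, 381.0, 506.2 and 473.8 in saline livers and 450.6, 417.5 and 376.6 in chow livers. DT liver 2 lay among the saline livers. With all livers the log2 fold change in DT over saline livers was -1.34 ± 0.43 (edgeR adjusted p = 0.0453), and without DT liver 2 it was -2.13 (edgeR adjusted p = 2.07e-05). The call was lost in all 10 refits that left out another library, with an adjusted p of up to 0.124, without DT liver 4, and also with no filter on low counts, with 2 groups alone and with the GC correction.

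Ugt2b5 had 201.1, 452.9, 264.5 and 307.4 CPM in DT livers, 451.9, 532.1, 503.0 and 435.0 in saline livers and 787.6, 736.8 and 698.0 in chow livers. DT and saline livers overlapped through DT liver 2, and all livers on the diet were below chow livers. On the log2 scale the change was -0.65 ± 0.21 in DT over saline livers (edgeR adjusted p = 0.0464) and -1.27 ± 0.23 in DT over chow livers (edgeR adjusted p = 0.00507). Ugt2b38 had 1.433, 3.829, 2.852 and 2.823 CPM in DT livers, 4.340, 3.722, 5.176 and 10.43 in saline livers and 15.12, 13.82 and 8.929 in chow livers. Its log2 fold change was -1.12 ± 0.36 in DT over saline livers (edgeR adjusted p = 0.0467) and -2.21 ± 0.39 in DT over chow livers (edgeR adjusted p = 0.00499). Both DT over saline calls were lost in all 10 refits that left out a library other than DT liver 2, with an adjusted p of up to 0.117 for Ugt2b5 (without saline liver 2) and 0.149 for Ugt2b38 (without saline liver 4). Both were also lost with upper quartile factors, total counts alone (Ugt2b5 then at -0.35), 2 groups alone, a replicate block or the GC correction, and Ugt2b38 in limma-voom and with other filters. Of their windows, 41.7% and 37.4% are shared with relatives.

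Ugt2b35 had 132.5, 197.0, 119.8 and 138.9 CPM in DT livers, 260.3, 206.8, 201.8 and 191.2 in saline livers and 198.8, 157.9 and 146.9 in chow livers. The log2 fold change in DT over saline livers was -0.55 ± 0.17 (edgeR adjusted p = 0.0429). It was called only without DT liver 2 or chow liver 1 among refits with 1 library left out, and the adjusted p was up to 0.116, without saline liver 1. It was also lost with upper quartile factors, total counts alone, 2 groups alone, a replicate block and the GC correction, where it was -0.20 (adjusted p = 0.548). Ugt2b36 and Ugt2b37 were not called in DT over saline livers in edgeR with all livers and fell in DT over chow livers. Ugt2b36 had 188.3, 470.9, 225.3 and 266.2 CPM in DT livers, 365.0 to 480.5 in saline livers and 503.6 to 542.1 in chow livers, with a log2 fold change over chow of -0.86 ± 0.26 (edgeR adjusted p = 0.0367). Ugt2b37 had 1.343 to 2.539 CPM in DT livers, 2.135 to 4.110 in saline livers and 4.061 to 4.584 in chow livers, with -1.06 ± 0.26 (edgeR adjusted p = 0.0161). The first call was lost in 8 refits with 1 library left out (adjusted p up to 0.101, without chow liver 3; it held without DT liver 2, saline liver 2 or saline liver 4). The other was lost without chow liver 1 (0.0618) or 2 (0.0524). Under total counts alone neither was called, at -0.44 for Ugt2b36 and -0.61 for Ugt2b37, and Ugt2b36 was lost with these 2 groups alone.

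Ugt3a1 and Ugt3a2, whose human forms use sugars other than glucuronic acid, were lowest in DT livers 1, 3 and 4. Ugt3a1 had 19.85, 46.19, 17.31 and 20.65 CPM in DT livers, 53.49, 62.15, 46.55 and 58.11 in saline livers and 64.05, 75.60 and 82.79 in chow livers, with no overlap between any 2 groups. Fitted in edgeR, its log2 fold change was -1.08 ± 0.27 in DT over saline livers (edgeR adjusted p = 0.0178) and -1.51 ± 0.29 in DT over chow livers (edgeR adjusted p = 0.00611). The call over saline was lost without saline liver 2 (adjusted p = 0.0536), DT liver 3 (0.0513) or DT liver 4 (0.0596). Ugt3a2 had 116.7, 323.8, 119.2 and 137.6 CPM in DT livers, 284.4 to 315.7 in saline livers and 376.2 to 432.9 in chow livers. It was called over chow (-1.21 ± 0.31, edgeR adjusted p = 0.0172; lost without chow liver 2 at 0.0525, chow liver 3 at 0.0594 and DT liver 4 at 0.053, and with these 2 groups alone). Over saline it was called only without DT liver 2 (-1.26, edgeR adjusted p = 1.21e-05) among these refits. With all livers it was called over saline in DESeq2 (-0.77, adjusted p = 0.032) and limma-voom (-0.9, adjusted p = 0.0463).

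**Figure D4:**
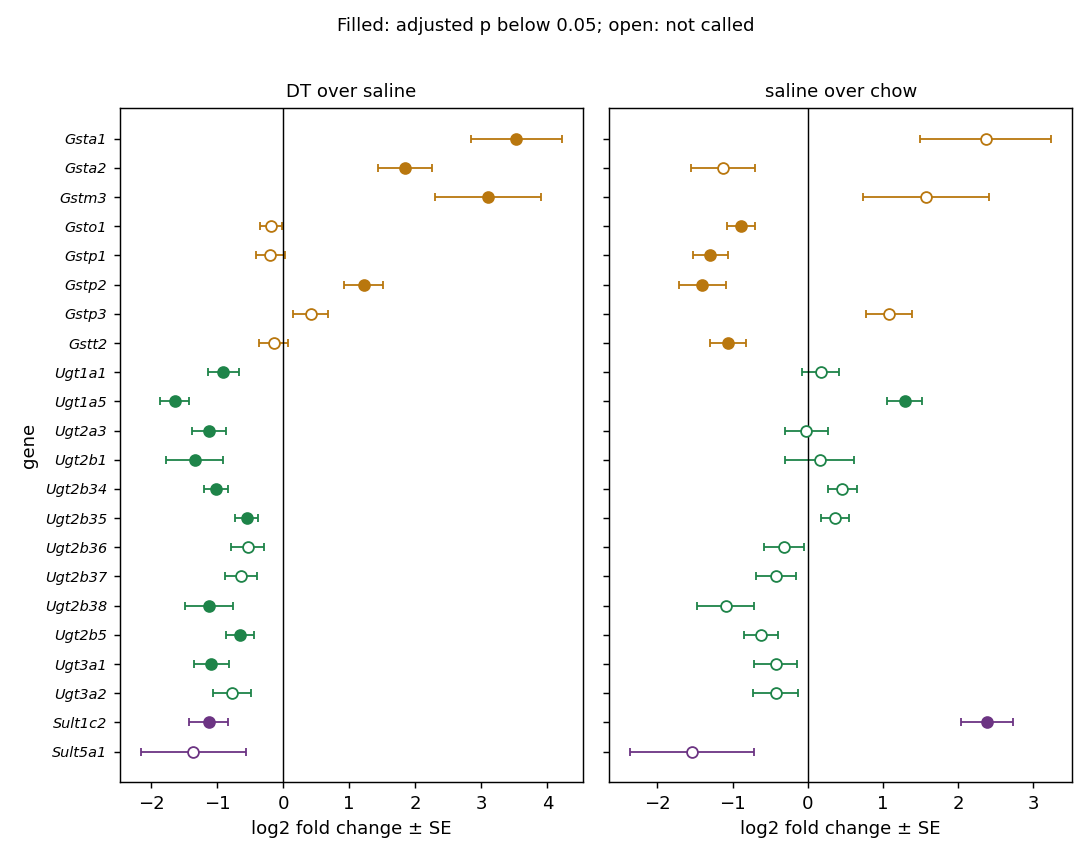
Log2 fold change with its SE for 22 members called in at least 1 comparison, in DT over saline livers (left) and saline over chow livers (right). Sult2b1, which was also called, is left out. Filled points passed an adjusted p of 0.05. Filled Ugt points of the left panel all lie below 0 and filled Gst points above it, while filled Gst points of the right panel lie below 0.

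Sult2a8, which in mouse liver sulfates bile acids, had the lowest fitted change of any member in DT over saline livers, rank 17 from the lowest of 17038 genes, and was not called. It had 1.015, 329.9, 16.17 and 11.41 CPM in DT livers, against 489.4, 564.3, 496.9 and 706.8 in saline livers and 518.9, 520.1 and 516.1 in chow livers. All DT livers were below all others, DT liver 2 by much less than the rest. The fitted log2 fold change was -2.66 ± 1.22 (edgeR adjusted p = 0.138), and without DT liver 2 it was -5.89 ± 0.81 (edgeR adjusted p = 0.000592). In limma-voom with all livers it was called at -5.29 (adjusted p = 0.0236). No window of Sult2a8 is shared with another gene. Sult2a7 had 0.0597, 2.247, 0.1694 and 0.02651 CPM in DT livers, 1.121 to 2.888 in saline livers and 0.7211 to 1.965 in chow livers. With all livers it was not called in edgeR (-1.60, adjusted p = 0.267), but was in limma-voom (-3.56, adjusted p = 0.0248) and with a replicate block (-2.87, adjusted p = 0.0427). Without DT liver 2 it was called in edgeR (-4.40, adjusted p = 0.000334).

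Sult5a1 had 0.1791, 6.305, 0.4942 and 0.7555 CPM in DT livers, 5.053, 5.349, 3.110 and 5.898 in saline livers and 16.58, 12.30 and 13.47 in chow livers. DT liver 2 was the highest liver on the diet and the other DT livers the lowest. On the log2 scale the change in DT over chow livers was -2.90 ± 0.86 (edgeR adjusted p = 0.032). This call was lost without chow liver 1 (adjusted p = 0.0885), 2 (0.0687) or 3 (0.0735) or DT liver 1 (0.05), 3 (0.0815) or 4 (0.0955), and in DESeq2, with no filter on low counts and with these 2 groups alone. Over saline it was called only without DT liver 2 (-3.33, edgeR adjusted p = 0.000124) among refits with 1 library left out. With all livers it was called over saline in limma-voom (-2.67, adjusted p = 0.0248).

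Sult1c2, a sulfotransferase of phenols, was highest in saline livers and lowest in chow livers. It had 4.120, 5.514, 2.146 and 2.863 CPM in DT livers, 6.724, 10.64, 7.335 and 7.155 in saline livers and 1.597, 1.085 and 1.892 in chow livers. The 3 groups did not overlap. The log2 fold change was 2.39 ± 0.35 in saline over chow livers (edgeR adjusted p = 0.0038), -1.12 ± 0.29 in DT over saline livers (edgeR adjusted p = 0.021) and 1.26 ± 0.33 in DT over chow livers (edgeR adjusted p = 0.0208). The first held in every refit with 1 library left out. The call of DT over saline was lost without saline liver 2 (adjusted p = 0.0703), DT liver 3 (0.0566) or DT liver 4 (0.0682), and that of DT over chow without chow liver 1 (0.0662) or 2 (0.0886), in limma-voom, with these 2 groups alone and with a replicate block.

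Sult2b1, which sulfates cholesterol and related sterols, was detected in DT livers only. It had 44, 2, 16 and 27 counts in DT livers 1 to 4, against 0 in every saline and chow liver, with 2 counts in DT liver 2 under the limit of detection. Pooled over livers it was at least 22.69-fold higher in DT livers than the floor of 3 counts over the saline group, and at least 14.88-fold higher than that floor over the chow group. It is the higher Sult gene in the count of DT over saline calls and 1 of the 2 in DT over chow, but it passed the filter on low counts through DT livers alone, so those calls carry no weight and no p is given. The sums of cholangiocyte markers in DT livers 1 to 4 were 135, 32.23, 87.68 and 144.2 CPM, and their part in this signal was not tested.

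Sult1a1, the most abundant phenol sulfotransferase, had 395.3, 298.2, 443.6 and 263.5 CPM in DT livers, 257.6 to 321.5 in saline livers and 334.1 to 408.3 in chow livers. It was not called in edgeR with TMM factors, but was in DT over saline livers under total counts alone (0.70, adjusted p = 0.0186). Sult1b1, which sulfates thyroid hormones, had 18.51, 32.00, 14.66 and 15.15 CPM in DT livers, 22.19 to 33.24 in saline livers and 20.11 to 26.10 in chow livers. It was called only without DT liver 2 among refits with 1 library left out (-0.85, edgeR adjusted p = 0.00145). Sult1d1, a sulfotransferase of catecholamines, had 31.99, 186.8, 92.48 and 136.3 CPM in DT livers, 113.2 to 149.4 in saline livers and 130.1 to 197.3 in chow livers, and Sult1e1, the oestrogen sulfotransferase, at 0.4776, 3.392, 0.7342 and 4.745, against 0.5122 to 0.8966 and 0.7777 to 2.421. Neither was called in edgeR with all livers. Sult1e1 was called in DT over saline in DESeq2 (1.66, adjusted p = 0.0343), under total counts alone (1.98, 0.0419), with the GC correction (1.80, 0.042) and without DT liver 1 (2.01, 0.0332). Sult2a1 and Sult2a2, which are low in male mouse liver, were not tested. Sult2a2 had 2.522 CPM in DT liver 1 and at most 0.2253 in any other liver.

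Genes around the conjugation step were taken from lists of the pathway. The counts of each list stand beside the shares of all genes called in DT over saline livers. These were 14.3% higher and 7.62% lower with all livers, and 22.6% and 17.7% without DT liver 2. Of 10 genes for other glutathione enzymes and glutathione synthesis, 1 was higher and 0 lower in DT over saline livers (median log2 fold change 0.05, all genes 0.02), and 3 were higher and 4 lower without DT liver 2. The higher gene was Ggt1, the membrane enzyme that begins the breakdown of glutathione conjugates, at 1.03, 0.08323, 0.706 and 1.007 CPM in DT livers and 0 to 0.1223 in saline livers. Ggt1 passed the filter on low counts through DT livers and not through saline livers, so that call carries no weight and no p is given. Mgst1, the microsomal transferase, had 1300, 3132, 1190 and 1415 CPM in DT livers, 2802 to 2971 in saline livers and 2479 to 2543 in chow livers, and was not called. Of 7 genes that supply UDP-glucuronic acid or PAPS, 0 were higher and 1, Slc35d1, was lower (median -0.28), or 1 higher and 3 lower without DT liver 2. The Slc35d1 call was lost in 7 refits with 1 library left out (adjusted p up to 0.0846, without saline liver 2).

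Of 10 enzymes of methylation, acetylation and amino acid conjugation, 1 was higher and 5 lower in DT over saline livers (median -0.59), and 1 was higher and 8 lower without DT liver 2. Nnmt, which methylates nicotinamide, was higher (log2 fold change 1.70, edgeR adjusted p = 0.0297), with 183.5, 84.67, 270.3 and 152.7 CPM in DT livers, against 101.7, 23.61, 21.4 and 65.67 in saline livers and 143.3 to 209.6 in chow livers. Nat2, Glyat, Acsm1 and Hnmt were among the lower genes. Hnmt, which methylates histamine, had 16.72, 29.03, 19.99 and 23.06 CPM in DT livers, 30.44 to 39.07 in saline livers and 12.08 to 16.21 in chow livers, with a log2 fold change of -0.66 in DT over saline livers and 1.32 in saline over chow livers (edgeR adjusted p = 0.018 and 0.00322). Of these calls in DT over saline livers, Hnmt was lost in 1 refit with 1 library left out (adjusted p = 0.0569, without saline liver 2), Glyat in 4, Nnmt in 6 and Nat2 and Acsm1 in 9 each, with adjusted p of up to 0.104 (Nat2, without DT liver 4).

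Of 11 receptors and regulators of these families, 1 was higher and 3 lower in DT over saline livers (median -0.40), and 1 was higher and 7 lower without DT liver 2. Ppara, the fatty acid receptor, had 61.93, 102.5, 92.95 and 83.06 CPM in DT livers, 245.5, 263.1, 234.9 and 297.3 in saline livers and 157.7, 146.2 and 159.8 in chow livers. The 3 groups did not overlap, and DT liver 2 lay with the other DT livers. Its log2 fold change was -1.61 in DT over saline livers (edgeR adjusted p = 0.000871), which held in every refit with 1 library left out, and 0.75 in saline over chow livers (edgeR adjusted p = 0.0224), which was lost in 5 (adjusted p up to 0.104, without chow liver 2). Nr1i2, the pregnane X receptor, was higher by 0.43 in DT over saline livers (edgeR adjusted p = 0.0225) and lower by a log2 fold change of -0.63 in saline over chow livers (edgeR adjusted p = 0.0138). It had 83.11 to 108.9 CPM in DT livers, 60.97 to 79.87 in saline livers and 104.6 to 117.2 in chow livers. Rxra and Nr1h4 were the other lower genes. The Nr1i2, Rxra and Nr1h4 calls of DT over saline were lost in 4, 2 and 4 refits with 1 library left out, with adjusted p of up to 0.0652, 0.0667 and 0.0549. Nfe2l2, which encodes the oxidative stress factor NRF2, had 69.02 to 85.57 CPM in DT livers and 59.89 to 83.57 in saline livers and was not called between these groups. In DT over chow livers it was the 1 higher gene of this list, beside 4 lower. That call was lost in 1 refit with 1 library left out (edgeR adjusted p = 0.0503, without chow liver 3).

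Of 10 tested target genes of these regulators outside the families, 1 was higher and 0 lower in DT over saline livers (median 0.13), and 2 were higher and 2 lower without DT liver 2. The higher gene with all livers was Cyp2b10, a target of the receptor CAR, at 67.11, 14.98, 18.02 and 43.74 CPM in DT livers, 0.7865 to 4.238 in saline livers and 1.719 to 20.12 in chow livers, with a log2 fold change of 3.97 (edgeR adjusted p = 0.00921). Nqo1, a target of NRF2, had 8.906 to 19.57 CPM in DT livers, 5.196 to 11.21 in saline livers and 7.941 to 11.19 in chow livers and was not called. Of 6 genes of conjugate export and hydrolysis, 1 was higher and 4 lower (median -0.63), and 2 were higher and 4 lower without DT liver 2. Abcc2, which exports glucuronides and glutathione conjugates into bile, had 504, 531.1, 400.8 and 410.2 CPM in DT livers, 718.7 to 795.2 in saline livers and 758.8 to 868.6 in chow livers (-0.72, edgeR adjusted p = 0.00727). Abcc3, which exports glucuronides into blood, was lower too (-0.73, edgeR adjusted p = 0.0171), as were Abcg2 and Arsa. Abcc4, another basolateral exporter, was higher, at 55.18, 5.14, 29.4 and 27.6 CPM in DT livers, 3.194 to 8.864 in saline livers and 4.093 to 5.745 in chow livers (2.27, edgeR adjusted p = 0.0159). Abcc3 was lost without 2 libraries in turn (adjusted p up to 0.0585, without DT liver 3), Abcc4 without saline liver 4 (0.0502) and Arsa in 9 refits (up to 0.097, without saline liver 4), while Abcc2, Abcg2 and Cyp2b10 were called in every such refit.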

How the data were processed

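Whole liver RNA of 11 mice was measured, 1 library each. The tools named per the submitters' processing notes are FastQC, STAR and featureCounts, with GRCm39 as the build. Versions, annotation, strand, mates and the handling of reads from several genes are not given in the sources used here. The authors deposited raw counts per Ensembl gene. Low counts were even numbers in 76.6% to 81.5% of cases, so halved counts were tried. The extraction text of the labels describes CD45-positive cells for single-cell work, whereas the sample labels name whole liver.

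Genes were kept by filterByExpr (17038 of 28842 with any count), scaled by TMM and fitted with edgeR 4.0.16 (limma 3.58.1, R 4.3.3), robust quasi-likelihood, 1 mean per group over all 11 libraries, 8 residual degrees of freedom, common biological coefficient of variation 30.1%. Tests were two-sided with Benjamini-Hochberg adjustment over all genes tested, threshold 0.05. DT livers thus enter the spread behind saline over chow. Floors cover counting error only, at 3 counts. On simulated counts with 200 changed genes, 57% of 2-fold and 94% of 4-fold changes were recovered for DT over saline among 16423 genes, with 8 false calls. These were 43% and 86% for saline over chow (16467 genes, 8 false calls) and 48% and 90% for DT over chow (16438 genes, 5 false calls). The changed genes all had a mean above 1 CPM. Simulated livers of a group shared 1 mean, with no liver set apart as DT liver 2 was. The rates therefore do not cover such a liver or changed genes of lower level.

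Members, lists and tests were chosen with earlier results of these data known. Fold changes are given for members called in at least 1 comparison, and most others are given by level. Gstt3 and Gsta5 are not described above, and neither was called in edgeR with all livers and TMM factors. Gsta5 was called higher in DT over saline without DT liver 2, where it is among the Gst genes counted, and in DESeq2 and under total counts alone. It held 0.0014% to 0.00431% of the Gst sum in saline livers. Its share was 0% in DT liver 2 and 0.0117% to 0.021% in the other DT livers. Gsta5 passed the filter on low counts through DT livers and not through saline livers, so these calls carry no weight and no p is given. The fold changes of Sult2a8, Sult2a7, Ugt1a9, Ugt1a6b and Sult1b1, and the list genes named, were chosen after their values were seen. Symbols, exon lengths, shared windows and GC content came from a GENCODE annotation of GRCm38, matched by Ensembl identifier. Within-group correlations of log CPM were 0.9176 to 0.9872, with 0 identical pairs. Alternatives were other factors, DESeq2 1.42.0, limma-voom, other filters, 2 groups alone, a replicate block, 1 library left out and, chosen after seeing the data, a GC correction. Values of 2 list genes are not reported here.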

Additional observations from a re-analysis of the deposited data

Results flagged for a closer look

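The 46 groups of 4 livers examined came from 23 members measured in the same livers, so they are not independent and no chance rate is given. Of these groups, 7 held a liver far from the other 3. In 5 of these the liver was DT liver 2. Among DT livers, Ugt2a3 was at 211.6 CPM in DT liver 2 and 91.99 to 101.5 in the others, Ugt3a1 at 46.19 and 17.31 to 20.65, Ugt3a2 at 323.8 and 116.7 to 137.6, Ugt1a5 at 7.449 and 5.474 to 5.717, and Sult5a1 at 6.305 and 0.1791 to 0.7555. Among saline livers, saline liver 2 stood apart for Gstp3, at 13.06 CPM against 9.859 to 10.1 in the others, and for Sult1c2, at 10.64 against 6.724 to 7.335.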

How the results depend on the processing

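Over the alternatives that gave a value, calls of the 15 members in DT over saline livers were kept in 248 of 324 refits, those of the 6 members in saline over chow in 111 of 132 and those of the 16 in DT over chow in 308 of 347, and 0 changed sign. Removing 1 library in turn gave 6 to 30, 2 to 11 and 10 to 26 called members in these comparisons, and 1786 to 6824, 287 to 1924 and 1786 to 6834 called genes. DESeq2 called 23 members in DT over saline, and 1831 genes in saline over chow, against 950. Fits of only the 2 groups compared called 2303, 3105 and 2089 genes, and 16 members in saline over chow. Total counts alone called 5629 genes in DT over saline (92.1% higher, against 65.2%) and 6536 in DT over chow (94.8%, against 64.5%), and 67.0% of saline over chow calls were higher, against 43.9%. It shifts the median of all genes by 0.34, 0.13 and 0.46, and 6 uncalled members change sign under it in DT over saline. The share of higher calls in DT over saline was 75.7% with upper quartile factors and 53.1% in limma-voom, and in DT over chow 77.6% and 50.6%. Members called in DT over saline were then 6 higher and 7 lower with upper quartile factors and 6 and 6 with the GC correction. The cause of these shifts was not tested. Same-numbered libraries did not deviate together (correlations -0.164 to 0.182). With a replicate block, 12, 4 and 14 members and 2842, 559 and 2210 genes were called. Depth limits Sult2a and other members near the floor, and 8 members could not be tested.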

Other observations

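Several conjugation genes of mouse liver differ between the sexes, and genes of that kind outside the families were described beside the members. Among all genes in DT over saline livers, 14.3% were called higher and 7.62% lower, or 22.6% and 17.7% without DT liver 2. Of 12 male-biased genes, 0 were higher and 2, Cyp7b1 and Nudt7, were lower in DT over saline livers in edgeR (median log2 fold change -1.29, all genes 0.02), and 0 were higher and 10 lower without DT liver 2. Their sums were 756.9 to 7069 CPM in DT livers, 3985 to 7194 in saline livers and 14950 to 16520 in chow livers. Nudt7, which hydrolyses coenzyme A in peroxisomes, had 25.46, 94.45, 33.94 and 28.31 CPM in DT livers, against 164.7 to 299.4 in saline livers and 65.16 to 117.1 in chow livers. Cyp7b1, an oxysterol hydroxylase, had 14.4, 73.7, 33.08 and 16.33 CPM in DT livers, 71.43 to 166.3 in saline livers and 191.3 to 318.7 in chow livers. The Cyp7b1 call was lost in 5 refits with 1 library left out (edgeR adjusted p up to 0.0789, without saline liver 4). Slco1a1, an organic anion transporter, had 0.0597, 143, 2.711 and 1.948 CPM in DT livers, 199.2 to 327.8 in saline livers and 137.9 to 164.4 in chow livers, and was not called with all livers.

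Of 11 tested female-biased genes, 3 were higher and 1 lower in DT over saline livers (median log2 fold change -0.47), the same counts as without DT liver 2. Sums over the 12 listed genes overlapped, at 29.92 to 152.9 CPM in DT livers, 33.29 to 210.9 in saline livers and 24.94 to 100.8 in chow livers. Cux2, a homeobox factor, had 22.79, 4.599, 6.213 and 2.041 CPM in DT livers, against 0.2644 to 0.6951 in saline livers and 2.238 to 21.74 in chow livers. Prom1 was also among the higher genes, and Cyp2c69 was the lower one. Prom1 had 25.25, 0.1665, 7.907 and 13.81 CPM in DT livers and 0.6388 to 1.061 in saline livers. Prom1 also marks cholangiocytes, whose markers were higher in these livers, and their part in it was not tested.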
